A study of Mus musculus with 8 samples.

Results

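The 10 genes described here encode the main cytosolic and endoplasmic reticulum chaperones of the heat shock system, their cochaperones and regulator, and the stress-inducible zinc finger protein Zfand2a. They were chosen by name and are all of the rows with the symbols Hspa1a, Hspa1b, Hspa8, Hspa5, Hsp90aa1, Hsp90ab1, Dnajb1, Hsph1, Hsf1 and Zfand2a among the 23143 genes of the deposited count table. The measurements are RNA-seq read counts from RAW264.7 cells, an established mouse macrophage line. One unstimulated culture was harvested at 0 min (0 ng/ml LPS) and the others after 15, 30, 45, 60, 75, 90 or 120 min with 100 ng/ml bacterial lipopolysaccharide (LPS, E. coli serotype O111:B4), a Toll-like receptor 4 ligand. All cultures shared the same medium with fetal bovine serum, no genotype or second agent differed between them, and the line is a single transformed line rather than primary macrophages. With 1 library for each time point, none of the differences in time could be checked against replicates, and a mock-treated culture was not analysed here. The labels call the RNA cytoplasmic, whereas the study's methods describe total RNA.

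Heat shock proteins of the HSP70 and HSP90 families bind unfolded or immature proteins and use ATP to release them in a foldable state. J-domain proteins such as Dnajb1 deliver clients to HSP70 and start its ATP hydrolysis, and nucleotide exchange factors such as Hsph1 reopen the cycle. The transcription factor Hsf1 is held inactive by chaperones in unstressed cells and, once freed, binds heat shock elements in the promoters of many chaperone genes; the unfolded protein response acts in a similar way on chaperones of the endoplasmic reticulum.

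Zfand2a and Dnajb1 were the genes of the group whose mRNA rose and then fell again within the time course, and their promoters are shown first because the genes moved together. Sequences are those of RefSeq on GRCm38.p6, reach from 250 bases before to 50 bases after an annotated start, and are written 5′ to 3′ on the strand of the gene. Capitals mark heat shock dyads, which are 2 inverted pentamer cores written as GAANNTTC (head to head) or TTCNNGAA (tail to tail). Both letter strings read the same on either strand. The Zfand2a window is chr5:139484442-139484741 on the minus strand and the first Dnajb1 window is chr8:83607925-83608224 on the plus strand.
Zfand2a: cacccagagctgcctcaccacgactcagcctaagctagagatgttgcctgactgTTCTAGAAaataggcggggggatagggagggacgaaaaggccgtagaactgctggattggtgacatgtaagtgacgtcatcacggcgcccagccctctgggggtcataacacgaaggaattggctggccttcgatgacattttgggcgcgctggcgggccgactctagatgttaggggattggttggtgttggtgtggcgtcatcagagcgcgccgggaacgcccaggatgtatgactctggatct
Dnajb1: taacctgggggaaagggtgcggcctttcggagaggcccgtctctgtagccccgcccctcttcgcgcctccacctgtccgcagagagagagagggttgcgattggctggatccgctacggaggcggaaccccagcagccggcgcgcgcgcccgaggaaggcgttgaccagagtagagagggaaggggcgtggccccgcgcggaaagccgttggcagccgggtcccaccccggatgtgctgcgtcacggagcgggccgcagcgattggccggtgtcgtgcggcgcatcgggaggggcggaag
Zfand2a held 1 tail-to-tail dyad at bases -196 to -189 from its start, with the first transcribed base counted as 0. Neither of the 2 Dnajb1 windows held a dyad, which says only that these letters are not in these windows.

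For the strongly heat-inducible gene Hspa1b (chr17:34959189-34959488, minus strand) and for the cochaperone gene Hsph1 (first of its 2 windows, chr5:149636287-149636586, minus strand), the same marking shows where the dyads lie.
Hspa1b: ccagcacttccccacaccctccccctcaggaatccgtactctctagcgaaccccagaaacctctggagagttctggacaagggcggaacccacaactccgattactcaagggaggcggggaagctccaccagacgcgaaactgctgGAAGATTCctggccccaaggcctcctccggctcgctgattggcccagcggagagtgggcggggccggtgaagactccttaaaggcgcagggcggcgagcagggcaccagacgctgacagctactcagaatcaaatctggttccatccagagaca
Hsph1: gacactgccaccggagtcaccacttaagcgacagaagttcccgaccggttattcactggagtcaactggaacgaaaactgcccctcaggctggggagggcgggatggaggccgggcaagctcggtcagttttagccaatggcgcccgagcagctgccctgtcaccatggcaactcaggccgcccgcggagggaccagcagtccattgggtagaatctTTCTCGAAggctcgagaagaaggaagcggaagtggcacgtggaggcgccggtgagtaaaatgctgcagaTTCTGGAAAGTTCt
The Hspa1b dyad was head to head at -104 to -97. The Hspa1a window (chr17:34972107-34972406, minus strand) carried the same dyad at the same place and differed from that of Hspa1b in 4 of 300 bases, an identity of 98.7%. Hsph1 had a tail-to-tail dyad at -33 to -26 and, after the start, overlapping dyads at 36 to 43 and 41 to 48 that together make a triad of 3 alternating cores.

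The Hspa5 window (chr2:34771840-34772139, plus strand) is shown for the ER stress element, the sequence CCAAT and the sequence CCACG with 9 bases between them, which is known from promoters of endoplasmic reticulum chaperone genes. Its capitals mark that element.
Hspa5: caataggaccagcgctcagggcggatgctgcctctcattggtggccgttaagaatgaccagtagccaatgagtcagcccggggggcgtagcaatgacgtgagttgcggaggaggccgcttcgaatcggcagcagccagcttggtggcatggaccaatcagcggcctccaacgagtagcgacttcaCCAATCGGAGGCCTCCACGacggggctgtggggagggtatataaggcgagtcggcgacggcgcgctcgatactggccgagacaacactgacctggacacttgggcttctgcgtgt
The element lay at -65 to -47, and the window held no heat shock dyad. Among all 32851 RefSeq promoter windows of this length, 7.86% held a head-to-head dyad, 8.52% a tail-to-tail dyad, 15.1% either of them, 0.603% a triad and 0.119% the ER stress element, searched on both strands. A match is a run of letters and does not show that a factor was bound.

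**Figure D1:**
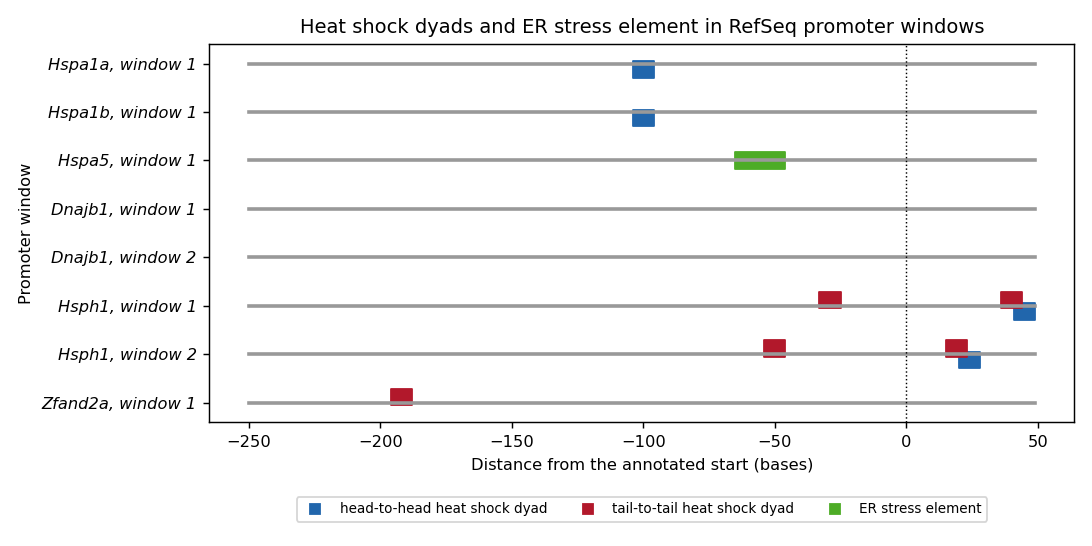
Positions of heat shock dyads and of the ER stress element in the promoter windows of 6 of the genes, in bases from the annotated start (dotted line at 0); each grey line is 1 window, and coloured boxes are matches. The dyads of Hspa1a and Hspa1b lie at the same distance from their starts (-104 to -97), that of Zfand2a lies at -196 to -189, and the Dnajb1 windows hold none.

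The libraries held 100250892 to 159077286 counts. The ribosomal RNA precursor Rn45s took 8.18% to 9.11% of the counts in the 0, 30, 60 and 120 min libraries and 13.0% to 20.5% in the 15, 45, 75 and 90 min libraries, which stand apart in this respect. Normalized counts below are raw counts divided by median-of-ratios size factors. Scaling by total counts instead moves every log2 ratio to 0 min down by between 0.03 (30 min) and 0.33 (75 min). All 8 macrophage markers of the table were detected, summing to 5738 to 6949 cpm (counts scaled to the library total), and 0 of 9 markers of lymphoid, epithelial, stromal, endothelial and liver cells reached a mean of 10 counts, summing to at most 0.0898 cpm. The response to LPS was present: normalized counts of Tnf, the early inflammatory cytokine, were 8922 at 0 min and 359742 at 120 min. In bulk RNA, fewer cells with a transcript and less of it per cell cannot be told apart.

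A gene is called higher or lower here where its log2 ratio to 0 min passed 0.5 in size and an exact negative binomial test of the pair of libraries gave an unadjusted p under 0.05. The dispersion was fitted over the 8 libraries, and such a test sets 1 library against another and does not compare conditions. A total of 12188 genes with a mean of at least 10 raw counts were tested, and 9 of the 10 genes described here were among them. Only Hspa1a was not. In the comparisons of these 9 genes with the unstimulated level at the 7 times with LPS, 9 were called higher and 0 lower, in Dnajb1, Zfand2a and Hspa1b. With Benjamini-Hochberg adjustment within each pair of libraries, 5 remained, of which Dnajb1 gave those at 45, 60 and 75 min, Zfand2a the 60 min one and Hspa1b the 120 min one. Over all tested genes, 11.8% were called higher at some time and 11.1% lower, and 3 of the 9 tested genes were called higher at some time. With total counts as the scale, 813 genes of all those tested were called higher and 1759 lower at some time, in place of 1443 and 1354.

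**Figure D2:**
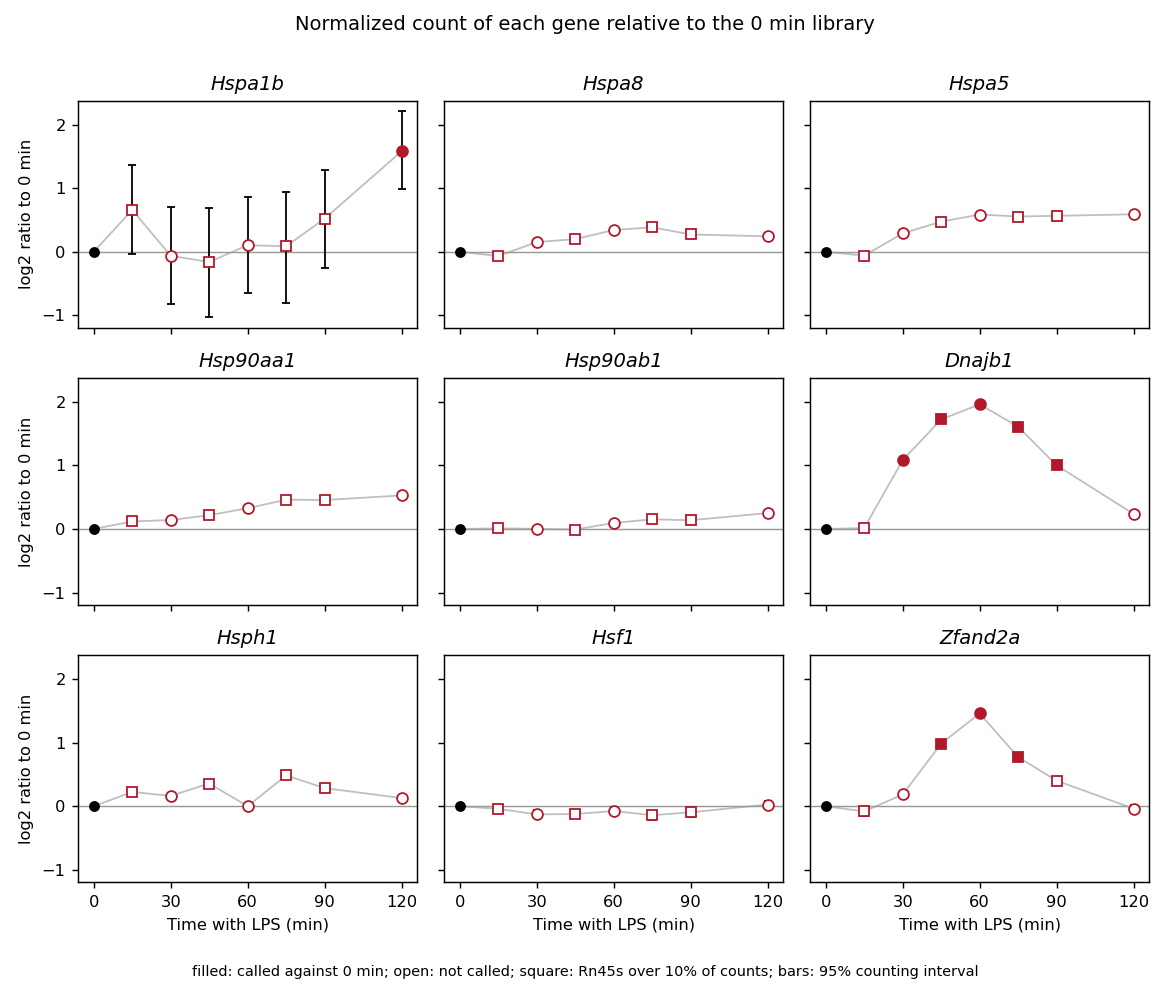
log2 ratio of the normalized count to the 0 min library (y axis, the same in every panel) against minutes with LPS (x axis) for the 9 genes with enough reads; filled points are called against 0 min, squares are libraries with over 10% Rn45s, and bars are 95% counting intervals, mostly smaller than the points. Dnajb1 and Zfand2a rise to 60 min and come back close to 0, whereas Hspa1b is called at 120 min only.

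Dnajb1 (GRCm38, chr8:83608175-83612653), the inducible HSP40 cochaperone of HSP70, had the largest ratio to 0 min of the 9 genes and rose transiently. Its normalized counts were 6327, 6390, 13419, 20931, 24658, 19326, 12677 and 7460 in the order of the time points from 0 to 120 min. The 0 and 15 min libraries were nearly equal, the 30 to 90 min libraries all lay above them, and the 120 min library was close to the start. The ratio to 0 min was 3.90 at 60 min (95% counting interval 3.798 to 3.999), which is 1.96 on the log2 scale, and 1.18 (1.14 to 1.22) at 120 min. At 60 min, 98.7% of the tested genes had a lower ratio.

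Zfand2a (chr5:139471216-139484491) encodes an AN1-type zinc finger protein, also known as AIRAP, that is induced by arsenite and binds the proteasome. Its normalized counts were 3455, 3266 and 3928 at 0, 15 and 30 min, then 6841, 9513 and 5910 at 45, 60 and 75 min, and 4567 and 3367 in the last pair of libraries. The 30 min library lay above the 2 before it (ratio to 0 min 1.14, 1.09 to 1.19), and the 60 min library stood above all others. The ratio at 60 min was 2.75 (2.65 to 2.86), a log2 ratio of 1.46, and that at 120 min was 0.974 (0.933 to 1.02).

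Dnajb1 was called higher at 30, 45, 60, 75 and 90 min, and Zfand2a at 45, 60 and 75 min. Of all tested genes, 1.35%, 4.61%, 4.19%, 5.82% and 7.02% were called higher from 30 to 90 min in that order, where 1, 2, 2, 2 and 1 of the 9 tested genes were called. Scaled by total counts, the Dnajb1 call at 90 min and the Zfand2a calls at 45 and 75 min were lost, and the peak log2 ratios were 1.87 and 1.37. In the libraries with under 10% Rn45s, Dnajb1 spanned 6327 to 24658 normalized counts and Zfand2a 3367 to 9513 with the highest value at 60 min, and in those with over 10%, which do not include the 60 min library, they spanned 6390 to 20931 and 3266 to 6841 with the highest value at 45 min.

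The study's methods sort genes by their extrema in time. By those rules Dnajb1 and Zfand2a belonged to group g1, whose first maximum comes at or after 60 min, and had a maximum at 60 min and a later minimum at 120 min. Group g1 held 9.68% of the tested genes, and a maximum at 60 min followed by a minimum at 120 min was found in 25 genes, 0.205% of those tested. Besides Dnajb1 and Zfand2a these 25 included Ier5, which encodes a cofactor of Hsf1, and the immediate early genes Klf6, Egr3, Nr4a2 and Trib1, named after their values were seen. Without the 60 min library both genes moved to g3, the group with an early maximum, since their highest value was then at 45 min, and without the 120 min library the minimum was placed at 90 min.

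In a fit across all genes with edgeR's quasi-likelihood test of a spline of time, with Benjamini-Hochberg adjustment over the 12188 genes, both genes changed over time, with an adjusted p of 0.0023 for Dnajb1 and 0.032 for Zfand2a. The smooth change passed the limit in 54.8% of all tested genes and in 7 of the 9. The Zfand2a call was lost without the 15 min library (edgeR adjusted p = 0.064) or the 45 min library (0.059). A straight line over time passed for neither gene.

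**Figure D3:**
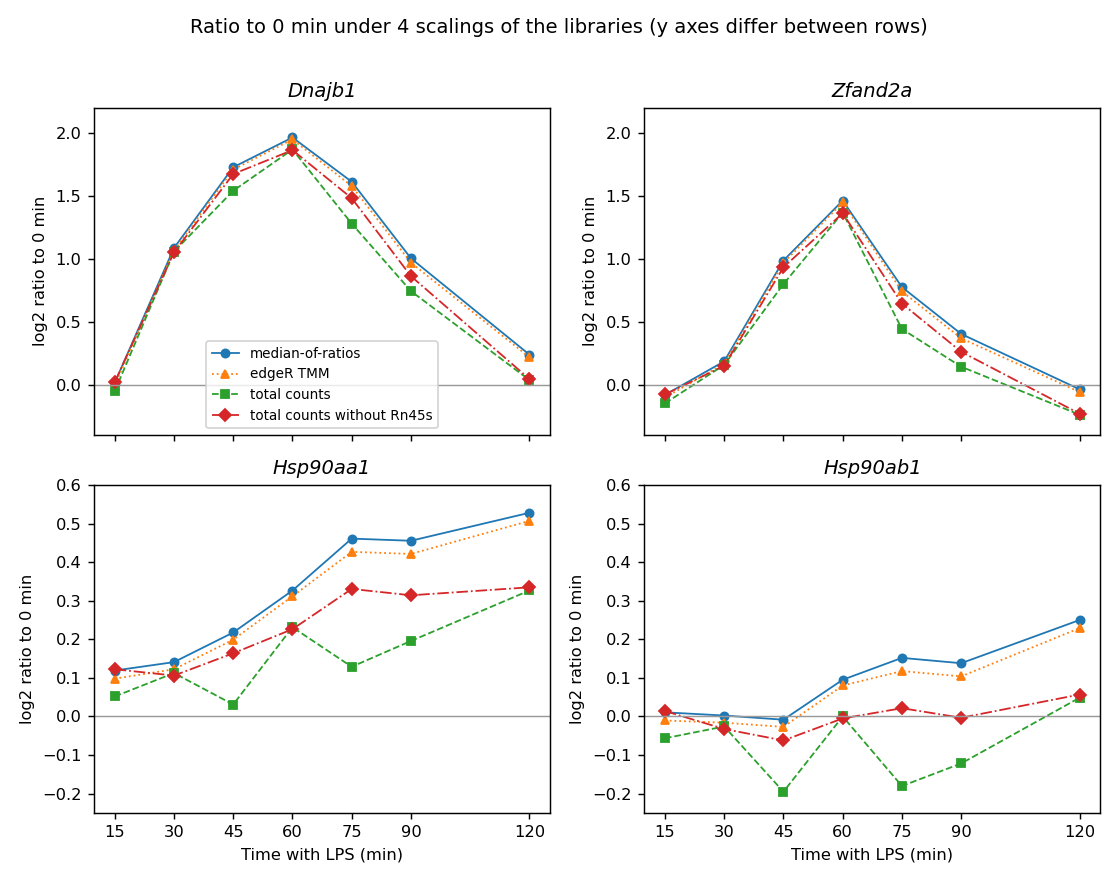
log2 ratio to 0 min (y axis) against minutes with LPS (x axis) for 4 genes under 4 scalings of the libraries; the y axes differ between the upper and lower row, and each point is 1 library. Dnajb1 and Zfand2a peak at 60 min under every one of the 4 scalings (1.96 and 1.46 with median-of-ratios, 1.87 and 1.37 with total counts), whereas the ratios of Hsp90ab1 change sign at 4 of 7 times with total counts.

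The genes most like each of them were sought among 1566 genes averaging at least 100 normalized counts and spanning at least 1 on the log2 scale, by Pearson's r of log2 normalized counts over the 8 libraries. These r values are a description, since the libraries share the time course and differ in depth. Nr4a2 (r 0.98), Taf7 (0.97), Chac1 (0.96), Ppp1r10 (0.96) and Trib1 (0.96) were most like Dnajb1. Stil (0.96), Gadd45g (0.95), Lars2 (0.95), Trib1 (0.94) and Nr4a2 (0.92) were most like Zfand2a. Nr4a2, an orphan nuclear receptor gene, and Trib1, which encodes a pseudokinase that guides a ubiquitin ligase, stood in both lists. Their log2 ratios at 60 min were 1.29 and 2.80 and those at 120 min 0.37 and 0.61. Dnajb1 and Zfand2a had an r of 0.93 with each other.

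Hspa1a and Hspa1b encode the stress-inducible cytosolic HSP70 and are near-identical neighbours on chromosome 17 (Hspa1a chr17:34969359-34972156, Hspa1b chr17:34956429-34959238). Reads matching more than 1 gene had been discarded before deposit, so each gene could be counted only where it differs from the other. Of the 58-base positions of the Hspa1a transcript, 1213 of 2910 (41.7%) were unique to it, and of Hspa1b 1094 of 2746 (39.8%). Most of these lie after the coding sequence, 756 in Hspa1a and 589 in Hspa1b. Both genes could thus be counted, but their levels are uncertain, as reads of the shared sequence are missing. Of the other genes, Hsp90ab1 shared 25 positions with Gm13498, and the rest were unique throughout.

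Hspa1a had 1 read in all 8 libraries together, in that of 75 min, and 0 in the other 7. In the unstimulated library, 0 counts allow up to 3, which is 0.0229 cpm, so no fold is given. Hspa1b had 31, 44, 31, 21, 32, 20, 30 and 98 raw reads from 0 to 120 min, which are 26.5, 41.9, 25.4, 23.7, 28.5, 28.2, 38.1 and 79.4 normalized counts. The 120 min library lay above the other 7. Among those, the 15 min library was the highest, and the 30 min level was 0.606 times that at 15 min (0.370 to 0.982). The ratio of the 120 min library to 0 min was 2.99 (1.98 to 4.64), 1.58 on the log2 scale, and it was called higher than at 0 min but not than at 15 or 90 min. At 120 min the call against 0 min was also made for 9.44% of all tested genes, and Hspa1b was the 1 of the 9. At 15 min the ratio was 1.58 (0.975 to 2.59), and none of the 9 genes was called there, against 0.345% of all genes.

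Hspa1b thus had its maximum at 120 min and counted as g1. Its slope over time was 0.63 ± 0.22 log2 per hour (SE; edgeR adjusted p = 0.044) and rested on the 120 min library, without which the slope was 0.06 (edgeR adjusted p = 0.87) and no call was left. The slope call was lost too with DESeq2 (adjusted p = 0.086), with total counts or with the 0, 30, 45, 60 or 90 min library left out (edgeR adjusted p between 0.051 and 0.086), while the slope was then 0.52 to 0.70 log2 per hour. Mcts2 (r 0.95), 5730507C01Rik (0.94), Antxr2 (0.92), Pigv (0.92) and Itpripl2 (0.91) were the genes most like it, with log2 ratios of 0.84 to 1.05 at 120 min.

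Hspa8 (chr9:40801276-40805202), the constitutive HSC70 that serves protein folding and clathrin uncoating, was the most abundant of the genes. Its normalized counts were 750503, 716236, 834037, 861456, 951467, 980378, 906658 and 888144 from 0 to 120 min. The highest library, at 75 min, was 1.31 times the 0 min level (1.30 to 1.31), a log2 ratio of 0.39 that did not reach the limit of 0.5. The slope was 0.18 ± 0.06 log2 per hour (SE; edgeR adjusted p = 0.034) and was lost when the 0, 15, 30 or 90 min library was left out (edgeR adjusted p between 0.056 and 0.12, slopes of 0.13 to 0.18) and with the Rn45s share as a covariate (adjusted p = 0.055, slope 0.17). The time and size of the highest ratio depended on the scaling. With total counts the log2 ratio was 0.05 at 75 min, and the highest was 0.25 at 60 min.

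Hspa5 (chr2:34772090-34776529), the BiP chaperone of the endoplasmic reticulum and a central target of the unfolded protein response, showed the largest ratios among the abundant chaperones. Normalized counts were 250748 and 240296 at 0 and 15 min, 306545 at 30 min, 348273 at 45 min, and 376454, 368420, 371266 and 377474 from 60 min on. With this scaling the first 2 libraries were the lowest and the last 4 formed a plateau. The ratio was 1.51 (1.498 to 1.512) at 120 min and its log2 of 0.59 was not called, while the slope of 0.34 ± 0.08 log2 per hour (SE) passed in edgeR (adjusted p = 0.0058). With total counts as the scale there was no plateau, and the log2 ratios at 60, 75, 90 and 120 min were 0.49, 0.22, 0.31 and 0.39.

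Hsp90aa1 (chr12:110691036-110696395) and Hsp90ab1 (chr17:45567778-45573261) encode the inducible and the constitutive cytosolic HSP90, which stabilise kinases and steroid receptors. Hsp90aa1 had normalized counts of 116343, 126367, 128297, 135320, 145937, 160219, 159602 and 167851 from 0 to 120 min. Every stimulated library lay above the 0 min library, and the final ratio was 1.44 (1.43 to 1.45), a log2 ratio of 0.53 that was not called. Hsp90ab1 stayed between 305354 and 309439 up to 45 min and was 328113, 341284, 338022 and 365370 from 60 to 120 min, with a final ratio of 1.19 (1.18 to 1.19).

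In the edgeR fit, slopes were 0.28 ± 0.03 log2 per hour for Hsp90aa1 (SE; adjusted p = 0.00020) and 0.13 ± 0.02 for Hsp90ab1 (SE; adjusted p = 0.0029). A rising slope was called in 5 of the 9 tested genes, namely Hspa1b, Hspa5, Hspa8, Hsp90aa1 and Hsp90ab1, and in 23.7% of all genes. All 9 fitted slopes were above 0, so that none was called falling, while 23.6% of all genes were. With total counts as the scale, all tested genes split into 1211 rising and 4465 falling in place of 2889 and 2882. Of the 5 genes 2 were then called, Hspa5 and Hsp90aa1, and the slope of Hsp90ab1 was 0.00063 log2 per hour (edgeR adjusted p = 0.99).

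Hsph1 (chr5:149616843-149636498), the HSP110 nucleotide exchange factor of HSP70, had normalized counts of 12663, 14801, 14178, 16225, 12666, 17728, 15437 and 13843 from 0 to 120 min. None of its ratios was called, and neither the slope (edgeR adjusted p = 0.55) nor the spline (0.49) passed. The 15, 45, 75 and 90 min libraries, at 14801 to 17728, all lay above the others, at 12663 to 14178, and these are the libraries with over 10% Rn45s. That split was found in 1.20% of all tested genes and in 1 of the 9, and the part of the Rn45s share in it was not tested. With total counts as the scale the split of Hsph1 did not hold, with log2 ratios of 0.13 at 30 min and 0.03 at 90 min. Without the 60 min library the spline of Hsph1 passed (edgeR adjusted p = 0.021).

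Hsf1 (chr15:76477362-76501155), the master regulator of the heat shock response, acts mainly through its protein, which these data do not measure. Its mRNA had normalized counts of 3740, 3637, 3424, 3434, 3550, 3389, 3502 and 3811 from 0 to 120 min, or 1.12 times from the lowest to the highest. That was the smallest range of the 9 genes with this scaling. With total counts the log2 ratio of Hsf1 went down to -0.47, and Hsp90ab1, Hsph1, Hspa8 and Hsp90aa1 varied less. Neither the slope, at 0.01 ± 0.04 log2 per hour (SE; edgeR adjusted p = 0.92), nor the spline (0.13) passed. With total counts without Rn45s as the scale the spline passed (edgeR adjusted p = 0.022), with log2 ratios down to -0.27.

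Levels of different genes were compared as rpkm, which divides counts by the number of unique 58-base positions and by the total counts of the library. At 0 min they were 2865 for Hspa8, 1124 for Hsp90ab1, 875 for Hspa5, 322 for Hsp90aa1, 30.2 for Hsph1, 19.2 for Dnajb1, 17.0 for Hsf1, 10.1 for Zfand2a and 0.216 (0.147 to 0.307) for Hspa1b. At 0 min the constitutive Hspa8 and Hsp90ab1 thus stood highest, and the inducible HSP70 gene Hspa1b lowest of the 9 tested genes. Over the 8 libraries, Hsp90ab1 (981 to 1162) and Hspa5 (800 to 1230) overlapped, as did Hsph1 (28.2 to 34.0) with Dnajb1 (18.5 to 70.1) and Hsf1 (12.2 to 17.0) with Zfand2a (8.52 to 25.9), so the order of these neighbours depends on the time. At 60 min Dnajb1 at 70.1 rpkm exceeded Hsph1 at 28.2, and Zfand2a at 25.9 exceeded Hsf1 at 15.1. Dividing by the length of the longest transcript gave the same order at 0 min, with 10.6 for Hsf1 and 0.0844 for Hspa1b.

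**Figure D4:**
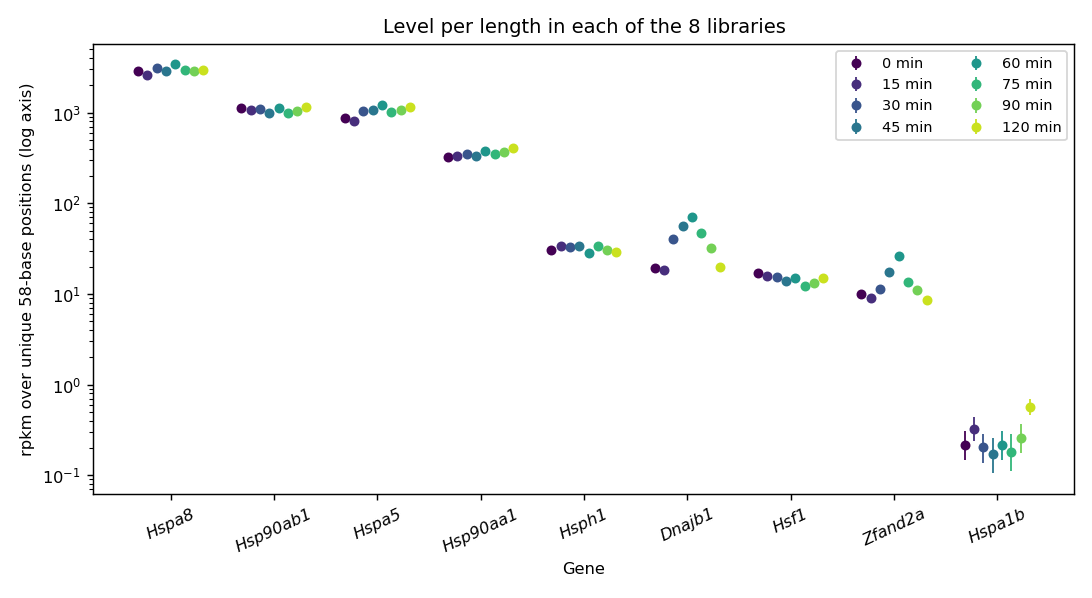
Level per length (rpkm over unique 58-base positions, logarithmic y axis) of 9 genes (x axis) in the 8 libraries, coloured by minutes with LPS, with 95% counting intervals that are visible only for Hspa1b. Hspa8 stays near 2609 to 3400 rpkm, and Dnajb1 moves from 18.5 to 70.1 rpkm, past Hsph1.

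Other genes of the same pathways were taken from lists set by function, and the counts below leave out the 10 genes above. Of 7 further HSP70 family genes tested, 0 were called higher or lower, against 11.8% and 11.1% of all tested genes. The spline passed for 4 of the 7 in edgeR, against 54.8% of all genes. Hspa4, an HSP110 relative, reached a log2 ratio of 0.40 and the mitochondrial Hspa9 one of 0.32. Hspa4l was at -0.32 at 120 min. Of 14 HSP90 cochaperones 0 were called, beside the same shares called, and the median log2 ratio at 120 min was 0.08, against -0.01 over all tested genes. For the 8 subunits of the cytosolic chaperonin, which folds actin and tubulin, 0 were called against 0 min, beside the same shares called. A rising slope was called for 7 of the 8 in edgeR, against 23.7% of all genes, and their median log2 ratio at 120 min was 0.17. With total counts as the scale 0 of the 8 had a rising or a falling slope in edgeR, and the HSP90 cochaperones, 4 of 14 rising and 0 falling with median-of-ratios, had 0 rising and 4 falling. All 12188 tested genes shifted likewise, from 2889 rising and 2882 falling to 1211 rising and 4465 falling.

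J-domain genes included 2 of 11 called higher and 0 lower, near the 11.8% and 11.1% over all tested genes. Dnajb4, a close relative of Dnajb1, had log2 ratios of 1.15, 1.66, 1.76 and 1.64 at 60, 75, 90 and 120 min, all called, whereas Dnajb1 was not called at 120 min. Dnajb5 had a log2 ratio of 0.88 at 60 min, its only call, and 0.28 at 120 min. Of 9 nucleotide exchange factors, 1 was called higher and 1 lower. Bag3, which links HSP70 to autophagy, was higher at 75 min (log2 ratio 0.78) and Bag2 lower at 120 min (-0.84). Among 3 small heat shock proteins tested, Hspb7 was called higher at 120 min and Hspb6 lower at 75 min, both at mean normalized counts below 100 and named after their values were seen. Hspb1 and Cryab, the widely induced small heat shock proteins, had mean normalized counts of 0.242 and 0.469, too few to test. Of the factor list, Hsf2 and the Hsf binding protein Hsbp1 were tested, and 0 were called higher or lower, beside the same shares. Their log2 ratios at 120 min were -0.21 and -0.28. The spline passed for both in edgeR, against 54.8% of all tested genes.

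In the endoplasmic reticulum, 4 of 23 genes tested were called higher and 2 lower, against 11.8% and 11.1% of all tested genes. Herpud1, which serves degradation of misfolded proteins, rose from 10496 normalized counts at 0 min to 30887 at 60 min and 34343 at 120 min. Dnajb9, a cochaperone of Hspa5, peaked at a log2 ratio of 1.60 at 45 min, as did the stress transcription factor gene Ddit3 at 1.46, and at 120 min they were at -0.25 and 0.01. Pdia3 was called higher at 45 min only. Eif2ak3, the sensor kinase PERK, and Xbp1 were called lower, with log2 ratios of -0.97 and -0.89 at 120 min, while the abundant chaperone gene Hsp90b1 reached no more than 0.19. Of 10 mitochondrial chaperone genes, Grpel2 alone was called, lower at 60 and 75 min (-0.71 and -0.78).

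In the Zfand family, 1 of 6 further genes was called higher and 1 lower, against 11.8% and 11.1% of all tested genes. The spline passed for all 6 in edgeR, against 54.8% of all genes. With total counts as the scale it passed for 4 of the 6, against 6412 of all 12188 tested genes. Zfand5, which also binds ubiquitin and the proteasome, had log2 ratios of 0.93, 1.16, 1.11, 1.15 and 0.93 from 45 to 120 min, all called, where Zfand2a was not called at 90 or 120 min. Zfand4 was called lower at 120 min (-1.42). The difference in course between the 2 genes was not tested, since each time point is 1 library.

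Of 12 further heat-inducible genes tested, 2 were called higher and 1 lower, against 11.8% and 11.1% of all genes. Ier5 had the largest ratio, from 4060 normalized counts at 0 min to 30344 at 60 min and 13718 at 120 min. Bag3 was the other gene called higher, and Dedd2 was called lower from 60 to 120 min (-0.81 to -1.31). Of 8 further arsenite-inducible genes, 4 were called higher and 0 lower, beside the same shares. Slc7a11, the cystine transporter, reached a log2 ratio of 2.71 at 120 min, Sqstm1, the autophagy receptor p62, 2.47, the sulfiredoxin gene Srxn1 1.53 and the thioredoxin reductase gene Txnrd1 0.86. These 4 were still high at 120 min, where Zfand2a was at -0.04. Hmox1, the haem oxygenase gene, reached 0.62 at 75 min and was not called. Scaled by total counts, called ratios kept their sign because the shift is smaller than 0.5. With that scale, 3 of the 8 arsenite-inducible, 1 of the 12 heat-inducible and 3 of the 23 endoplasmic reticulum genes were called higher. Over all 12188 tested genes, 813 were then called higher.

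**Figure D5:**
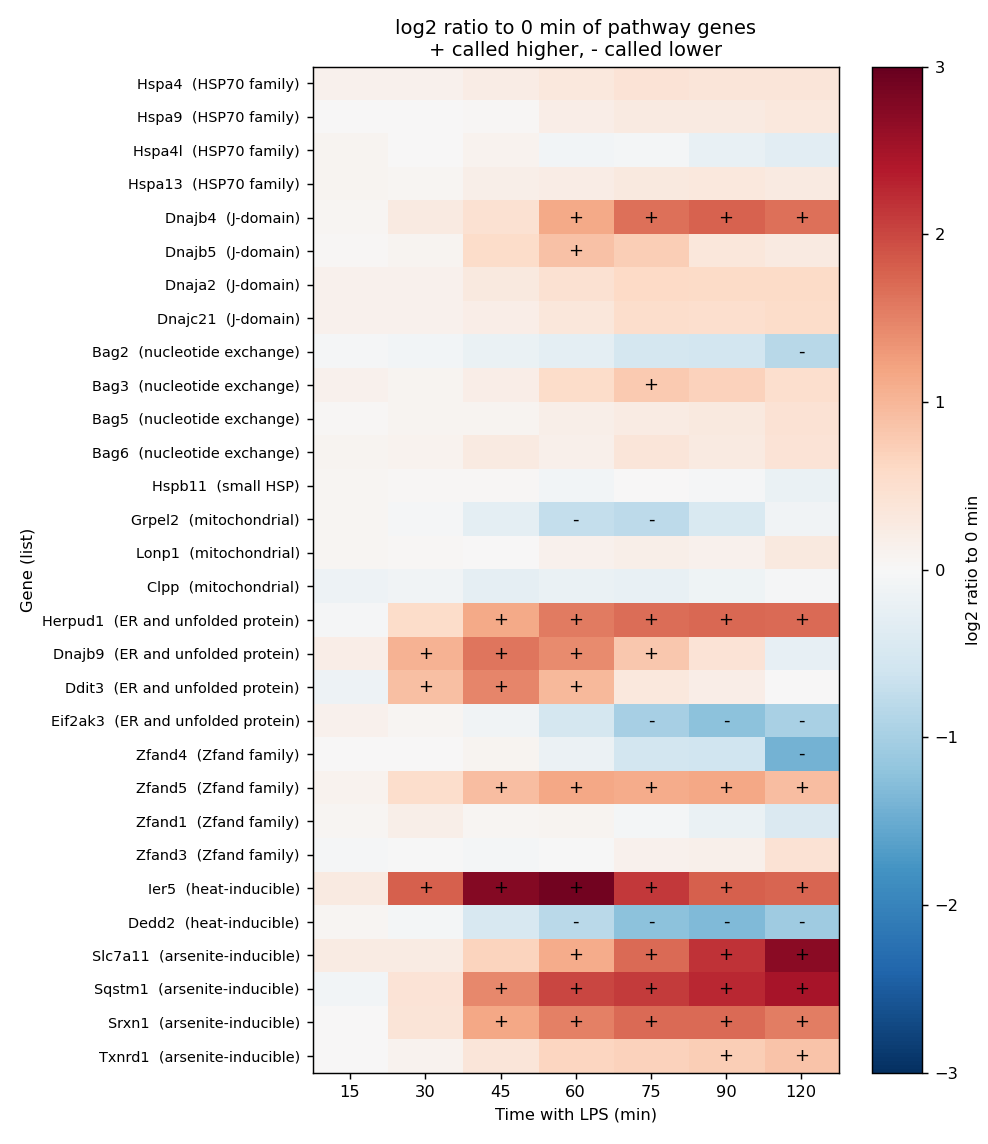
log2 ratio to 0 min (colour) of pathway genes named by rule (rows, with their list) in the 7 libraries with LPS (columns, in minutes); plus and minus signs are calls against 0 min. Ier5, Dnajb9 and Ddit3 are highest at 45 or 60 min, and Slc7a11, Sqstm1, Srxn1, Txnrd1 and Herpud1 are called higher at 120 min.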

How the data were processed

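RNA left after ribosomal RNA removal had been sequenced with 1 library per time point. The authors mapped reads with Bowtie to RefSeq transcripts of mm10, allowing 2 mismatches, discarded reads matching more than 1 gene symbol and deposited raw read counts per gene symbol. CASAVA 1.8.2 and DESeq 1.10.1 are named in the submitters' processing notes, and the Bowtie version is not given in the sources used here. Whether counting used the strand is not given in the sources used here. No column was left unused.

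Samples were grouped by labelled time. From the counts, median-of-ratios size factors, a blind dispersion over the 8 libraries and an exact negative binomial test of 28 pairs of libraries were computed (Python 3.11.15, numpy 2.4.6, scipy 1.17.1, pandas 2.3.3, numba 0.67.0), after the study's DESeq settings. Slopes and splines (3 degrees of freedom) over time were fitted in edgeR 4.0.16 (R 4.3.3), with Benjamini-Hochberg adjustment over 12188 genes and DESeq2 1.42.0 as an alternative. These p-values measure spread around a curve, not between replicates. The code was tested on simulated data. Intervals of ratios are exact conditional binomial and those of rpkm exact Poisson, at 95%, for counting error only. Unique 58-mers came from GENCODE vM21 transcripts matched by RefSeq accession for 22569 of 23143 genes. Motifs were searched in RefSeq promoter windows of GRCm38.p6, and Hspa8, Hsp90aa1, Hsp90ab1 and Hsf1 were not matched.

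The genes, the lists and the rules were chosen with earlier results of these data known. The named genes are the 10 genes, from each list with a called gene up to 4 others with the largest absolute log2 ratio among genes averaging at least 100 normalized counts, and the 5 most correlated genes of each gene with a log2 span of at least 1. Lists held genes of the HSP70 and HSP90 families, cochaperones, chaperonin, mitochondrial and endoplasmic reticulum chaperones, Zfand genes, heat- and arsenite-inducible genes and markers. Xbp1, Pdia3, Hsp90b1, Hmox1, Hsf2, Hsbp1, Hspb1 and Cryab are list genes named after their values were seen. 1 list gene is not reported here and was left out of its list. The split of libraries by Rn45s share was chosen after the data were seen.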

Additional observations from a re-analysis of the deposited data

How the results depend on the processing

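Of 9 calls against 0 min, Benjamini-Hochberg adjustment left 5. With each library but 0 min left out in turn, between 1 and 3 of the genes had an expression pattern in g1, and 1 was the value without the 60 min library. The linear trend was called in 5 genes, in 2 with total counts and in 2 with total counts without Rn45s, and in 3 to 5 with each library left out in turn, 3 being the value without the 0, 30 or 90 min library. The smooth change was called in 7 genes, in 3 with total counts and in 5 to 8 with each library left out in turn. Of the other values that answer a comparison, 74 were equal or stayed within 1.5 times. These values are counts, which cannot change sign, and they include the number of lower calls, which was 0 in every setting. The alternatives run also included edgeR TMM factors, DESeq2, a log2 limit of 1, other filters, the Rn45s share as a covariate and the 0, 30, 60 and 120 min libraries alone. For single genes, 384 values kept their side of the threshold or moved by less than counting error, 162 moved by more, 29 lost a call and 2 gained one. Among the 384 and the 162, 18 and 17 values that were not called changed sign, such as the slopes of Hsph1 and Hsf1 with total counts (-0.07 and -0.12 log2 per hour). The cause of these changes was not tested, other than fewer libraries where a library was left out. Depth limits Hspa1b (20 to 98 reads per library) and Hspa1a (1 read in all), and each time point is 1 sequenced library. No paired analysis was possible because each time point has 1 library.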
